A study of Mus musculus with 15 samples.

Results

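The 10 genes described here are A4gnt, Clstn3, Gal3st1, Dnaic1, Olig1, Gm32468, Gm34654, Sult5a1, Serpina7 and Vaultrc5. They were chosen by their measured values in these livers, as genes that stood away from wild type in the same direction in ESR1KO females and in ESR1KO males. They are 10 of the 55573 genes in the count table and 10 of the 17655 genes that had enough counts to be tested. The differences between each knockout group and its wild-type group therefore describe the genes and are given with no test. The levels of wild-type females and males were also in view in the choice, because genes whose shift was a plain feminization or masculinization were to be left out.

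The study asked how the loss of the oestrogen receptor ESR1 changes sex differences in liver DNA methylation and expression. Liver RNA was depleted of ribosomal RNA and sequenced from 15 mice, with 1 library per mouse. The groups were wild-type females (FWT, n = 3), ESR1KO females (FKO, n = 5), wild-type males (MWT, n = 3) and ESR1KO males (MKO, n = 4), all 8 weeks old. All mice were of the strain B6N(Cg)-Esr1tm4.2Ksk/J, and the ESR1KO mice were homozygous offspring of heterozygous parents. The deletion removes an Esr1 exon in every tissue, not in the liver alone, and the study describes these mice as infertile with raised testosterone in both sexes. A shift in a knockout liver may therefore follow from the missing receptor in hepatocytes or from hormones made elsewhere, and these cannot be told apart in this design.

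Total counts ranged from 27799061 to 78624766 per liver. Esr1 RNA averaged 81.9 ± 6.79 CPM (counts scaled to the library's total with TMM factors; SD, n = 3) in FWT, 13.1 ± 4.01 (n = 5) in FKO, 36.1 ± 14.1 (n = 3) in MWT and 11.8 ± 3.35 (n = 4) in MKO. No knockout liver overlapped a wild-type liver of its sex for Esr1. The hepatocyte markers Alb, Apoa1, Ttr, Hnf4a, Cps1 and Serpina1a summed to 100490 to 108001 CPM in FWT, 81879 to 105839 in FKO, 74611 to 76615 in MWT and 86630 to 95451 in MKO. The sums of MWT and MKO livers did not overlap, and most of each sum was Alb, at 53546 to 55916 CPM in MWT and 67390 to 75833 in MKO. Hnf4a and Serpina1a went the other way, also with no overlap. Hnf4a was at 572 to 609 CPM in MWT and 420 to 491 in MKO, and Serpina1a at 1357 to 1429 and 1100 to 1256. Apoa1, Ttr and Cps1 overlapped between MWT and MKO. The part of these levels in the results was not tested. Of these markers, 0 of the 6 passed the test in either sex by edgeR (2 in each sex at an unadjusted p under 0.05; Ttr in females and Alb in males by DESeq2). P-values in the text come from edgeR's quasi-likelihood test with Benjamini-Hochberg adjustment over all genes tested, and a gene passed at an adjusted p under 0.05. They measure the spread between these mice. In bulk tissue, fewer cells of a type and less RNA per cell cannot be told apart.

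ESR1 is a nuclear receptor that binds oestrogens and then binds DNA at oestrogen response elements, or is tethered there by other factors. The liver carries it in both sexes, and much of the difference between female and male livers is known to depend on the pituitary pattern of growth hormone, which sex steroids shape. The 10 genes come from unrelated families. A4gnt and Gal3st1 modify glycans, Sult5a1 belongs to the cytosolic sulphotransferases, and Serpina7 encodes thyroxine-binding globulin, a carrier of thyroid hormone in plasma. Olig1 and Clstn3 are best known from the nervous system, Dnaic1 from motile cilia, Vaultrc5 is the RNA of the vault particle, and Gm32468 and Gm34654 are long non-coding RNAs.

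The genes A4gnt, Gal3st1, Serpina7, Dnaic1 and Sult5a1 separated all 9 knockout livers from all 6 wild-type livers, and sequences just upstream of their starts are shown for this reason. The sequences are from RefSeq (GRCm38.p6) and end at a start of the gene, or at the first exon base that GENCODE M21 places there. For Gal3st1 the window before a downstream start, which lies inside the gene, was chosen. It alone among the windows upstream of the genes' starts held a searched motif, which is in capitals.
A4gnt, chr9:99612252-99612501, plus strand: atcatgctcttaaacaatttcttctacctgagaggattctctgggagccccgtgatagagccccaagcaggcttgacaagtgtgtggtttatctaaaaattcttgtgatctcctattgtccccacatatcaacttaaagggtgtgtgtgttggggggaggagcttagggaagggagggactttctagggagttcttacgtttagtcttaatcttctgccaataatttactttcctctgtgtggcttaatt
Gal3st1, chr11:3989683-3989932, plus strand: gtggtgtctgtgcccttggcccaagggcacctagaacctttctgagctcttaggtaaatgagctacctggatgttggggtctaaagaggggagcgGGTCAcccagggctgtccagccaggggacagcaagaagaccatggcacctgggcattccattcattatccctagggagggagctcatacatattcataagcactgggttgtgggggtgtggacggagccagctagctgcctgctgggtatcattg
Serpina7, chrX:139085237-139085486, minus strand: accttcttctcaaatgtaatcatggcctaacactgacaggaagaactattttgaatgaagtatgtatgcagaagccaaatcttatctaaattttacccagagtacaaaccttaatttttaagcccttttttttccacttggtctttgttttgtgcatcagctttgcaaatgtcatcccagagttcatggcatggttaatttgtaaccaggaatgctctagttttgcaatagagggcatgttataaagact
Dnaic1, chr4:41569544-41569774, plus strand: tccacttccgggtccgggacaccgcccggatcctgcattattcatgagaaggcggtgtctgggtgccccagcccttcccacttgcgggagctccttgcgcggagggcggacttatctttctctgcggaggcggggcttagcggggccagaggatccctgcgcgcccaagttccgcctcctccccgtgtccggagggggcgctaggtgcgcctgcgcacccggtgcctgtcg
Sult5a1, chr8:123158316-123158530, minus strand: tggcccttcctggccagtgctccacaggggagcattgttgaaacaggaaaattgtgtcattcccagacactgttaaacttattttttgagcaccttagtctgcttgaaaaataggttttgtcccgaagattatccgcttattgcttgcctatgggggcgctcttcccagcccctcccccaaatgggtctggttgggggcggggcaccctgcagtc

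Motifs of the oestrogen, growth hormone and androgen pathways were searched on both strands in 32851 RefSeq windows that run from 250 bases before to 50 bases after a start. The 10 genes had 14 such windows for 8 of the genes, and none was matched for Olig1 and Vaultrc5. The full oestrogen response element (GGTCANNNTGACC) was in 0 of the 14 windows and in 0.0700% of all windows. Its core, GGTCA, which is part of that element, was in 2 of the 14 windows, 1 of Gal3st1 and 1 of Gm32468, against 40.5% of all windows. The growth hormone-linked STAT element (TTCNNNGAA) was in 0 of 14 windows, against 8.30% of all windows. The androgen receptor core AGAACA was in 1 window, that of Dnaic1, against 19.0% of all windows. The matches in Gm32468 and Dnaic1 lay after the start and are not in the sequences shown. A match describes letters in a window, and a missing match says nothing about a factor.

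A4gnt, the transferase that caps mucin glycans with N-acetylglucosamine and is best known from gastric glands, lies on GRCm38 chromosome 9 from 99612502 to 99622367. It was close to undetected in wild type, with 0, 1 and 1 counts in the FWT livers and 3, 1 and 3 counts in the MWT livers. The FKO livers held 7, 15, 53, 19 and 6 counts, and the MKO livers held 39, 10, 87 and 64. Every knockout liver was above every wild-type liver in CPM, and the spread among knockout livers was wide, with the highest FKO liver 15.3-fold above the lowest. Scaled to library size, the counts summed to 31.1-fold more in FKO than in FWT (95% interval 8.39 to 260) and to 20.3-fold more in MKO than in MWT (95% interval 9.68 to 51.2). These exact intervals are given because the wild-type counts are so few, cover counting error only and are no test of the genotype. The fitted log2 fold changes were 4.82 ± 1.27 (SE) in females and 4.29 ± 0.96 in males, and the female value was 3.95 without FKO 3 and 4.18 without FWT 1. A4gnt passed the filter on low counts only through knockout livers, 3 of FKO and 3 of MKO.

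**Figure D1:**
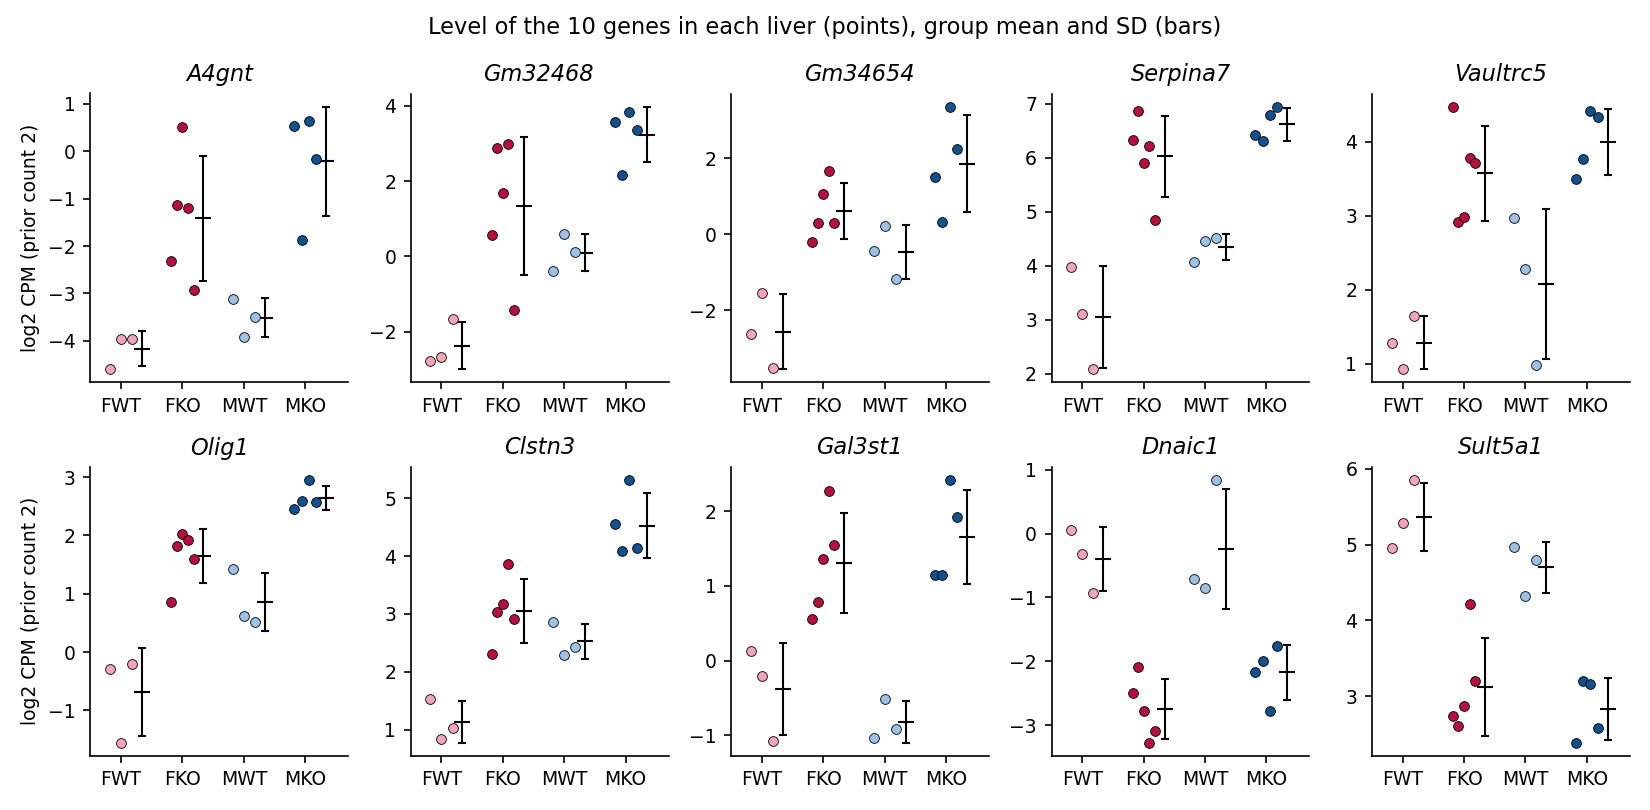
Level of each of the 10 genes in every liver, as log2 CPM with a prior count of 2 on the vertical axis and the 4 groups on the horizontal axis. Points are single livers in order of their number, and the bar beside each group gives its mean and SD. In each panel the knockout livers of a sex do not overlap the wild-type livers of that sex, and Gm32468 in FKO 5 lies just above the FWT livers. Nothing is read from this separation, since these livers chose the genes.

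Gal3st1, the sulphotransferase that makes sulphatide from galactosylceramide, lies on chromosome 11 from 3983636 to 3999326. Its levels were 1.05, 0.830 and 0.435 CPM in FWT and 1.43, 1.68, 2.53, 4.77 and 2.88 CPM in FKO. In males they were 0.445, 0.660 and 0.492 CPM in MWT and 2.17, 2.17, 5.29 and 3.75 CPM in MKO. All 9 knockout livers were above all 6 wild-type livers. The log2 fold change was 1.77 ± 0.42 in females and 2.67 ± 0.45 in males. Gal3st1 was the only one of the 8 genes with higher knockout levels whose mean was not lower in FWT than in MWT.

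Sult5a1, a cytosolic sulphotransferase, lies on chromosome 8 from 123140192 to 123158315 and shifted the other way. It was at 31, 39 and 57.6 CPM in FWT and at 6.66, 6.04, 7.30, 18.5 and 9.13 CPM in FKO. The MWT livers held 31.3, 20.0 and 27.8 CPM and the MKO livers 5.20, 9.12, 8.95 and 5.97 CPM. Every knockout liver was below every wild-type liver, and FKO 4 came closest, at 18.5 CPM against a lowest wild-type value of 20.0 CPM. The mean was 4.45-fold lower in FKO and 3.59-fold lower in MKO (log2 fold changes -2.15 ± 0.31 and -1.85 ± 0.33).

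Serpina7 lies on the X chromosome from 139079257 to 139085236 and encodes the carrier of thyroxine in plasma. FWT livers held 15.7, 8.53 and 4.22 CPM and FKO livers 80.4, 117, 59.6, 74.1 and 28.7 CPM. MWT livers held 16.7, 22.1 and 22.9 CPM and MKO livers 85.7, 78.8, 111 and 123 CPM. All 9 knockout livers lay above all 6 wild-type livers, the lowest being FKO 5. Its level was 7.55-fold higher in FKO and 4.86-fold higher in MKO (log2 fold changes 2.92 ± 0.42 and 2.28 ± 0.41).

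Clstn3 encodes calsyntenin 3, a cadherin-family protein of synapses, and a shorter product of the same locus is known from lipid droplets of fat cells. The gene lies on chromosome 6 from 124430759 to 124464794, and the counts do not separate its transcripts. It was at 2.86, 1.75 and 1.99 CPM in FWT and at 4.91, 8.16, 8.91, 14.4 and 7.47 CPM in FKO. It was at 7.21, 4.84 and 5.33 CPM in MWT and at 23.4, 17.0, 39.7 and 17.7 CPM in MKO. The groups did not overlap within a sex, and MKO 3 was the highest liver. The log2 fold changes were 1.98 ± 0.35 in females and 2.08 ± 0.34 in males, a close to 4-fold difference in each (3.96-fold and 4.23-fold).

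Olig1, a transcription factor of the oligodendrocyte lineage, is a single-exon gene on chromosome 16 from 91269772 to 91271933. Its levels were 0.774, 0.300 and 0.825 CPM in FWT and 1.77, 3.50, 4.01, 3.76 and 2.99 CPM in FKO. They were 2.64, 1.49 and 1.40 CPM in MWT and 5.46, 5.99, 7.68 and 5.93 CPM in MKO. The groups did not overlap within either sex, and FKO 1 lay inside the range of the MWT livers. The log2 fold changes were 2.32 ± 0.33 in females and 1.78 ± 0.30 in males.

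Gm32468, a lincRNA on chromosome 10 from 93084206 to 93093727, had the most uneven response among knockout females. FWT livers held 0.103, 0.115 and 0.275 CPM and FKO livers 1.43, 7.25, 3.15, 7.87 and 0.332 CPM. MWT livers held 0.716, 1.47 and 1.03 CPM and MKO livers 11.9, 4.43, 14.3 and 10.3 CPM. FKO 5 was barely above the highest FWT liver and below the lowest MWT liver, and the FKO livers spanned a 23.7-fold range against 3.22-fold in MKO. The log2 fold changes were 4.61 ± 0.95 in females and 3.25 ± 0.75 in males. The female value rests on 6, 5 and 12 counts in the FWT livers, of which 1 was over the minimum of the filter on low counts. The gene shares its chromosome with Esr1, from which it lies 88.1 Mb away.

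Gm34654, a lincRNA on chromosome 9 from 77807036 to 77809793, was at 0.120, 0.300 and 0.0458 CPM in FWT and at 0.819, 1.19, 2.03, 3.12 and 1.18 CPM in FKO. In males it was at 0.692, 1.12 and 0.396 CPM in MWT and at 2.78, 1.21, 10.2 and 4.72 CPM in MKO. The groups did not overlap within a sex, but MKO 2 lay only just above the highest MWT liver and MKO 3 well above the other MKO livers. The log2 fold changes were 3.43 ± 0.80 in females and 2.74 ± 0.64 in males. The FWT livers held only 7, 13 and 2 counts, and 1 of them was over the minimum of the filter on low counts. The female value was 4.21 without FWT 2 and the male value was 2.03 without MKO 3.

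Vaultrc5, a short RNA of the vault ribonucleoprotein transcribed by RNA polymerase III, lies on chromosome 18 from 36801866 to 36802008. It was at 2.39, 1.87 and 3.09 CPM in FWT and at 22.2, 7.53, 7.90, 13.8 and 13.1 CPM in FKO. It was at 7.80, 4.84 and 1.93 CPM in MWT and at 11.2, 13.6, 21.3 and 20.1 CPM in MKO. The groups did not overlap within a sex, and FKO 2 was below the highest MWT liver. The log2 fold changes were 2.40 ± 0.43 in females and 1.79 ± 0.42 in males. Its length of 143 bases is short for fragmented libraries, whose recovery of such RNA was not tested.

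Dnaic1, an intermediate chain of the outer dynein arms of motile cilia, lies on chromosome 4 from 41569775 to 41638158 and was the other gene lower in knockout livers. It was at 0.998, 0.761 and 0.481 CPM in FWT and at 0.136, 0.193, 0.104, 0.0620 and 0.0755 CPM in FKO. It was at 0.568, 0.513 and 1.74 CPM in MWT and at 0.181, 0.210, 0.104 and 0.253 CPM in MKO. All 9 knockout livers were below all 6 wild-type livers, although the knockout livers held only 3 to 19 counts each. The log2 fold changes were -2.76 ± 0.47 in females and -2.34 ± 0.45 in males, and the male value was -1.499 without MWT 3, the highest wild-type liver. The gene passed the filter on low counts through its wild-type livers, with 0 FKO livers and 1 MKO liver over the minimum.

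Across the genes, 8 were higher and 2 were lower in both knockout groups. All 10 passed in both contrasts, which the choice of the genes fixed. Among all genes tested, 3.14% were called higher and 2.57% lower in FKO against FWT, and 0.833% were called higher and 0.583% lower in MKO against MWT. Only 0.153% were higher in both sexes and 0.0793% lower in both, which are 27 and 14 genes. The median log2 fold change over all genes was within 0.01 of 0 in both contrasts. A4gnt, Gal3st1 and Serpina7 were among the 0.402% of genes with every knockout liver above every wild-type liver, and Dnaic1 and Sult5a1 were among the 0.329% with every knockout liver below. No test of the 10 genes follows from these shares, since the same livers chose them. The share of all genes with no overlap within a sex was not counted, and nothing is read from that separation in the 10 genes.

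**Figure D2:**
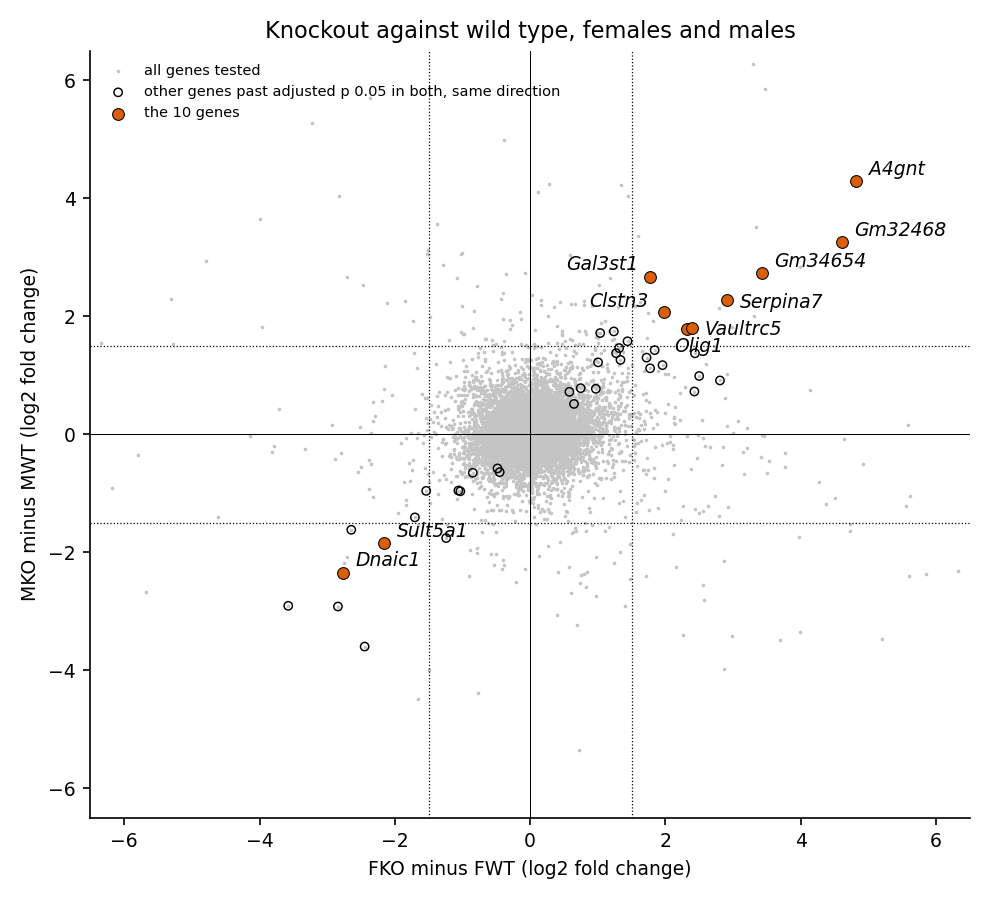
Log2 fold change of FKO minus FWT on the horizontal axis and of MKO minus MWT on the vertical axis, for all genes tested (grey), the 10 genes (orange) and the other genes past an adjusted p of 0.05 in both sexes in 1 direction (open circles). Dotted lines mark log2 fold changes of 1.5 in size, and 23 genes lie outside the axes. The 8 higher genes sit at the top right, from Gal3st1 at 1.77 in females to A4gnt at 4.82, and Dnaic1 and Sult5a1 at the bottom left.

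With a minimum log2 fold change of 1.5 in size in both sexes, the genes higher in both numbered 8, and all 8 were among the 10 genes. The genes lower in both at that minimum numbered 6. Of these, Dnaic1 and Sult5a1 belong to the 10, and B430219N15Rik, Wif1, Mup18 and the deleted Esr1 do not. Gal3st1 had the smallest shift of the 8 on this count, with 1.77 as the smaller of its 2 log2 fold changes. Just outside the minimum lay Lgals1, which encodes galectin-1, at 1.44 in females and 1.58 in males. Fam83f followed at 1.84 and 1.43, Gm11639 at 2.44 and 1.37 and Pparg, the adipocyte nuclear receptor, at 1.32 and 1.46. The call of Fam83f in MKO (adjusted p = 0.0473) was lost in 11 of 15 fits without a single liver. Its call in FKO (adjusted p = 0.00984) was lost without FWT 2 or FWT 3. The stability of the other genes just outside the minimum was not examined gene by gene. On the lower side Sult5a1 was the smallest of the 2, at -1.85 in males, and Gm43195 lay outside at -1.70 and -1.41.

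The non-member genes lower in both sexes were tested. B430219N15Rik, a non-coding RNA, fell by 3.58 ± 0.47 on the log2 scale in FKO (adjusted p = 0.000168) and fell by 2.91 ± 0.48 in MKO (adjusted p = 0.00450). Mup18, a major urinary protein whose near-identical relatives can share its reads, fell by 2.45 ± 0.49 in FKO and fell by 3.60 ± 0.52 in MKO (adjusted p = 0.00770 and 0.00190, and 0.0520 in FKO under the replicate block). Wif1, a secreted inhibitor of WNT signalling, fell by 2.84 ± 0.66 in FKO and fell by 2.92 ± 0.59 in MKO (adjusted p = 0.0192 and 0.0180), with adjusted p up to 0.148 and 0.111 when single livers were left out.

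Wild-type levels of the 10 genes are set beside the knockout levels as a description, since they were in view in the choice. Of the 8 genes with higher knockout levels, 7 had a lower mean in FWT than in MWT, the exception being Gal3st1, beside 47.8% of all genes tested. The FWT and MWT livers of Vaultrc5 overlapped, and A4gnt rests on 2 counts in FWT and 7 in MWT. The log2 differences of FWT minus MWT were -1.38 ± 0.37 for Clstn3 and -1.51 ± 0.36 for Olig1. The mean of FKO was above the mean of MWT for all 8 genes. Every FKO liver exceeded the highest MWT liver for A4gnt, Gal3st1 and Serpina7, while 4 of 5 did for Clstn3, Olig1, Gm34654 and Vaultrc5 and 3 of 5 for Gm32468. For Dnaic1 and Sult5a1 all 5 FKO livers were below the lowest MWT liver. Over all genes tested, 5.34% had every FKO liver above every MWT liver and 4.57% had every FKO liver below, and nothing is read from these counts because the genes were chosen with the FKO levels.

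The rule for choosing the genes did not name the difference between knockout females and knockout males, and this difference was tested. The test is not independent of the choice, which used the levels of the same FKO and MKO livers. The mean was lower in FKO than in MKO for 9 of the 10 genes, all but Sult5a1, while the median log2 difference over all genes tested was 0.01. Nothing is read from this count, since the share of all genes with a lower FKO mean was not counted and many of the 10 genes vary together. Only Clstn3 passed: its level was 2.78-fold lower in FKO (log2 difference -1.48 ± 0.28, adjusted p = 0.0323), and all 5 FKO livers were below all 4 MKO livers. That makes 1 of 10 genes, beside 0.113% of all genes called lower and 0.159% called higher in FKO than in MKO. The call was lost without FKO 1, FKO 2, MKO 1 or MKO 3, with adjusted p from 0.0695 to 0.137. With only the FKO and MKO livers in the fit the adjusted p was 0.106, and by DESeq2 it was 6.54e-05.

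Olig1 showed the next clearest difference, at -0.97 ± 0.25 (95% interval -1.52 to -0.43). Its FKO and MKO livers did not overlap, as for Clstn3. Nothing is read from this, since the share of all genes tested that separate these groups was not counted. The adjusted p was 0.0965, with a range of 0.0104 to 0.293 over the alternatives, past the threshold by DESeq2 and with no filter. Gm34654 differed by -1.52 (interval -2.61 to -0.43, adjusted p = 0.161, and 0.0336 with no filter), and by -0.82 without MKO 3. Gm32468 differed by -1.36 (interval -2.60 to -0.13, adjusted p = 0.232). For A4gnt the difference was -1.10 (interval -2.37 to 0.18, adjusted p = 0.336), and it was -1.97 without FKO 3 (adjusted p = 0.0842). For Dnaic1 it was -0.79 (interval -1.96 to 0.38, adjusted p = 0.445). None of these 5 differences passed in the fit to all 15 livers with the filter on low counts, and their intervals reach past 1 log2 unit. Serpina7, Vaultrc5, Gal3st1 and Sult5a1 had the smallest differences, at -0.47 (interval -1.21 to 0.26), -0.36 (-1.11 to 0.39), -0.34 (-1.07 to 0.39) and 0.38 (-0.28 to 1.04), with adjusted p of 0.463, 0.585, 0.60 and 0.512.

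**Figure D3:**
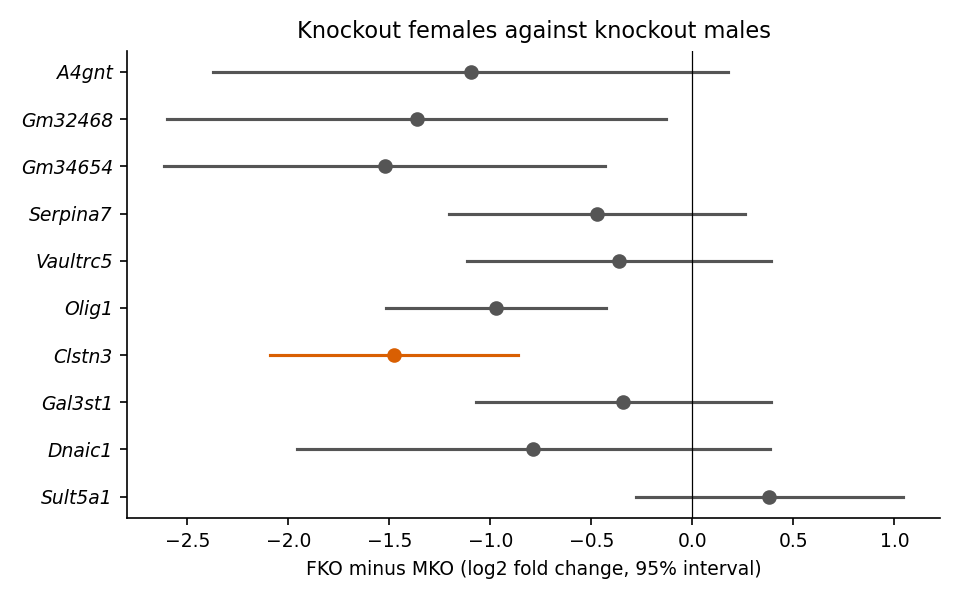
Log2 fold change of FKO minus MKO for the 10 genes on the horizontal axis, with points for the fitted difference and lines for the 95% interval from its SE with 11 residual degrees of freedom. Clstn3, in orange, passed at an adjusted p of 0.0323. The intervals of A4gnt, Serpina7, Vaultrc5, Gal3st1, Dnaic1 and Sult5a1 include 0.

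Levels can be set against each other only per length of exon. In knockout livers Vaultrc5 stood at 102 CPM per kb of exon and Serpina7 at 34.4, followed by Gm32468 at 6.29, Gm34654 at 5.66 and Clstn3 at 3.17. Olig1 stood at 2.11, Sult5a1 at 1.93, Gal3st1 at 1.45, A4gnt at 0.260 and Dnaic1 at 0.0527 CPM per kb. In wild-type livers the order began with Vaultrc5 at 25.6, Sult5a1 at 7.80 and Serpina7 at 6.13 and ended with A4gnt at 0.0116. With both sexes pooled, Sult5a1 was thus ahead of Serpina7 in wild type and far behind it in knockout livers. This order did not hold in wild-type males alone. In MWT Sult5a1 averaged 26.4 CPM over 4419 exon bases and Serpina7 20.5 CPM over 2448, so Serpina7 was ahead per kb there.

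The size of the shift went with single livers. Of the 8 higher genes, MKO 3 had the highest MKO level for 7, and MKO 2 the lowest for 5. Among females FKO 4 had the highest level for 4 of the 8 genes, and FKO 1 and FKO 5 the lowest for 4 and 3. Library totals were 58288552 counts in MKO 3 and 44430530 in MKO 2, and 46779628 in FKO 4, 44169276 in FKO 1 and 65665473 in FKO 5, and the part of depth was not tested. Over all 15 livers the 28 pairs among these 8 genes had Pearson correlations of log2 CPM from 0.67 to 0.95, which the genotype shift alone can give. With each group's mean taken out the correlations ran from -0.23 to 0.81 with a median of 0.21, and the closest pair was Gal3st1 with Gm34654. The genes of a liver share its library and depth, and the values are given as a description.

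The genes beside the 10 on their chromosomes were tested, since the choice of the genes did not use them. Of 21 tested neighbours, 2 rose and 2 fell in FKO, and 2 rose and 0 fell in MKO, while the background of 17655 genes was 555 higher and 453 lower in FKO and 147 higher and 103 lower in MKO. The median log2 fold change of the neighbours was 0.03 in females and 0.05 in males. No neighbour of A4gnt, Clstn3, Gal3st1, Olig1 or Vaultrc5 passed in either sex, but Gm44096 beside Clstn3 was at 0.68 in FKO (adjusted p = 0.0688) and passed by DESeq2 (0.0334), under the replicate block (0.0298) and without FKO 5 or MKO 4. Their nearest genes include Dzip1l at 7.13 kb, Pes1 at 3.63 kb and Zmat2 at 2.20 kb.

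Dnaic1 was the 1 gene of the 10 that overlapped a tested neighbour. Enho, which encodes the secreted peptide adropin, lies on the opposite strand and shares 15 exon bases with the end of Dnaic1. Enho was at 31.7, 34 and 32.3 CPM in FWT, at 11.6, 9.02, 7.56, 8.00 and 9.63 in FKO, at 32.7, 25.8 and 38.5 in MWT and at 11.1, 22.9, 6.86 and 18.8 in MKO. All 9 knockout livers were below all 6 wild-type livers, as for Dnaic1. Enho fell by 1.83 ± 0.26 on the log2 scale in FKO (adjusted p = 0.000458). In MKO it was at -1.12 ± 0.28 (adjusted p = 0.0596, and 0.00161 to 0.261 over the alternatives). Enho passed in MKO by DESeq2 (adjusted p = 0.00608), with no filter (0.00161), with total counts only (0.0494) and without MKO 2 (0.0130). Gm12406, an antisense RNA that begins 1.22 kb past Dnaic1, fell by 2.71 ± 0.57 in FKO (adjusted p = 0.00987, and 0.0744 without FWT 1) and was at -2.08 ± 0.57 in MKO (adjusted p = 0.0882). In MKO it passed by DESeq2 (adjusted p = 0.0325), with no filter (0.0206) and without MKO 4, where it was at -3.04 (0.0391). Over the 15 livers Dnaic1 correlated with Enho at r = 0.91 and with Gm12406 at r = 0.91, which the genotype shift alone can give. With the group means taken out these were 0.53 and 0.69. Whether the counting used strand is not given in the sources used here, so reads of overlapping and antisense genes at this locus cannot be assigned with certainty. Fam219a, which starts 0.237 kb from Dnaic1 on the other strand, was at -0.36 ± 0.15 in females and 0.05 ± 0.15 in males (adjusted p = 0.156 and 0.945).

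Gm32468 had a moving neighbour as well. Cfap54, a cilium gene on the opposite strand whose start lies 2.59 kb away, was at 0.722, 0.576 and 0.779 CPM in FWT and at 0.955, 1.90, 1.95, 2.73 and 1.06 CPM in FKO. In males it was at 0.889, 1.03 and 1.14 CPM in MWT and at 3.94, 2.40, 7.07 and 4.79 CPM in MKO. All FKO livers were above all FWT livers, and all MKO livers above all MWT livers. Cfap54 rose by 2.16 ± 0.37 on the log2 scale in MKO (adjusted p = 0.00585), and in FKO it was at 1.30 ± 0.38 (adjusted p = 0.0531, and between 0.00592 and 0.176 over the alternatives). Its correlation with Gm32468 over the 15 livers was 0.92, and 0.78 with the group means taken out.

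Elovl5, an elongase of polyunsaturated fatty acids 108 kb from Gm34654, rose by 1.74 ± 0.30 in MKO (adjusted p = 0.00608) and was at 0.48 ± 0.28 in FKO (adjusted p = 0.319). Gclc, on the other side and 12.6 kb from Gm34654, did not pass in either sex. Beside Serpina7, the gene 4930513O06Rik starts 1.01 kb away on the opposite strand and rose by 1.503 ± 0.39 in FKO (adjusted p = 0.0327), from a low level of at most 0.293 CPM in any liver. The call was lost without FWT 2 or FWT 3 (adjusted p = 0.139 and 0.156), with no filter (0.0593) and under the replicate block (0.0642). In MKO it was at 1.18 ± 0.37 (adjusted p = 0.154). Beside Sult5a1, Rpl13 at 34.9 kb rose by 0.48 ± 0.09 in FKO (adjusted p = 0.00463), opposite in direction to Sult5a1. Gm4316, nearer to Sult5a1 at 6.94 kb, lay in the direction of Sult5a1. It was at -0.41 ± 0.72 in FKO (adjusted p = 0.772) and at -2.29 ± 0.75 in MKO (adjusted p = 0.180, and 0.0178 with no filter).

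**Figure D4:**
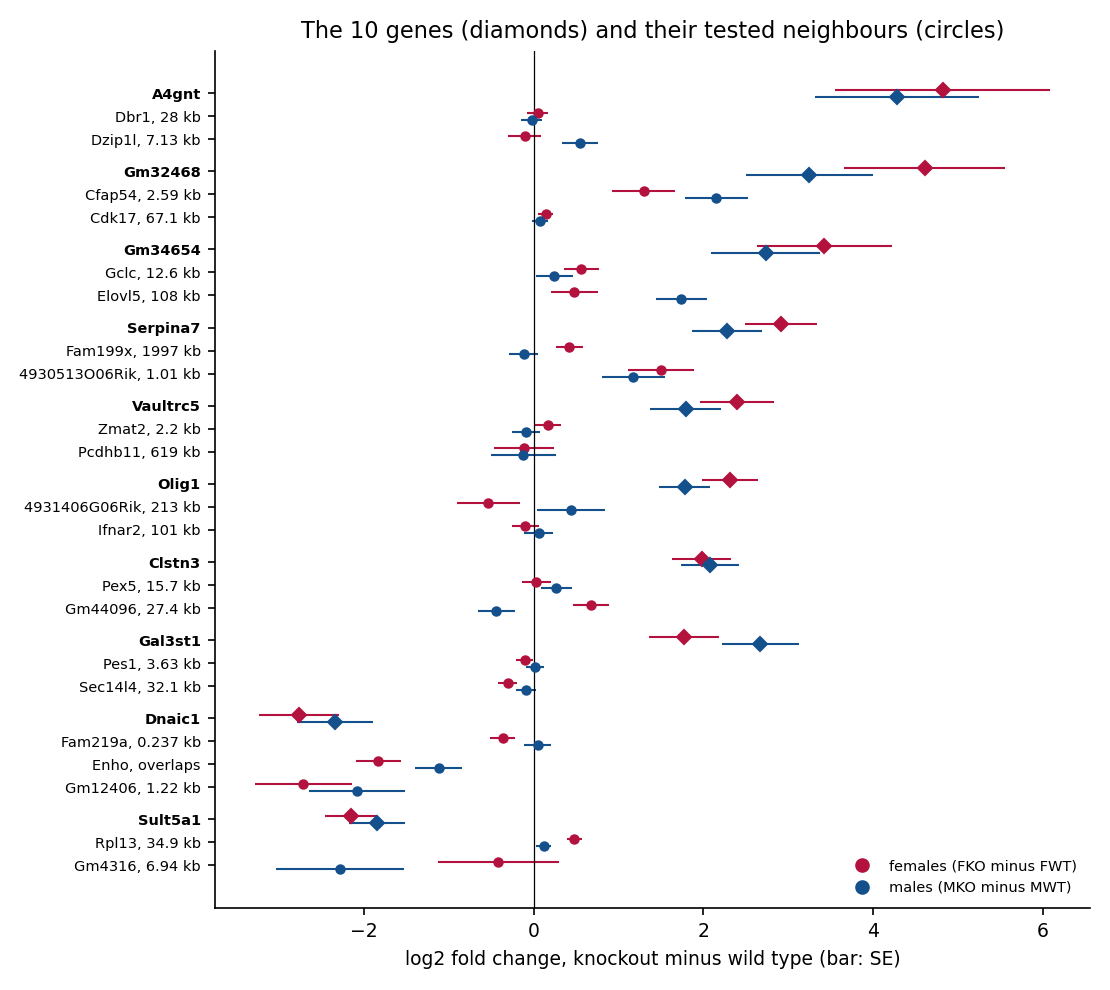
Log2 fold change of knockout minus wild type with its SE, in females (red) and males (blue), for the 10 genes (diamonds, bold names) and the 21 tested neighbours (circles, with the distance in kb). Most neighbours lie near 0. Enho and Gm12406 beside Dnaic1, Cfap54 beside Gm32468 and 4930513O06Rik beside Serpina7 lie on the side of the gene they flank. In males Elovl5 beside Gm34654 and Gm4316 beside Sult5a1 do so as well.

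Relatives of the 10 genes and genes of their pathways were tested as lists. In the edgeR fit to all 15 livers with the filter on low counts, no gene of any list passed in the same direction in both sexes. Under alternatives some did: Cst3, Fitm1 and Me1 by DESeq2, Cidec, Dio1, Fitm1, Me1 and Plin4 with no filter, Fitm1 with only the groups compared, Me1 under the replicate block, and either Me1 or Fitm1 without FWT 2, FKO 1, FKO 4, FKO 5, MKO 2 or MKO 4. Among 22 tested paralogues, 3 were higher and 6 lower in FKO, and 1 was higher and 1 lower in MKO. The list's median log2 fold change was -0.11 in females and -0.08 in males. The sulphotransferase Sult3a1, a relative of Sult5a1, fell from a mean of 107 CPM in FWT to 0.0654 in FKO (log2 fold change -10.63 ± 0.29, adjusted p = 2.93e-13), and it was near 0 in both male groups. Sult3a2 fell from 3.05 to 0.00302 CPM in females (adjusted p = 4.47e-06). Serpina1e, an antitrypsin that is related to Serpina7 and near-identical to its own cluster neighbours, went opposite ways: it rose by 1.11 ± 0.28 in FKO (adjusted p = 0.0295, up to 0.135 without single FWT livers) and fell by 1.64 ± 0.28 in MKO (adjusted p = 0.00585).

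Gal3st1 and Sult5a1 belong to sulphate chemistry, and other genes of that kind were tested. Of 18 tested genes of sulphated glycolipids, 2 were higher and 1 lower in FKO and 0 passed in MKO by edgeR (2 at an unadjusted p under 0.05, and Cst3 by DESeq2). Arsa, the arylsulphatase that removes sulphate from sulphatide, rose by 1.22 ± 0.23 in FKO (adjusted p = 0.00455) and was at 0.35 ± 0.23 in MKO (adjusted p = 0.607). The other passing genes, Cst3 at 0.36 ± 0.09 and Sgms1 at -0.31 ± 0.09 in FKO, had adjusted p of 0.0353 and 0.04997 and lost their calls without FWT 1 or FWT 3 among other livers. Of 8 tested genes that make or use the sulphate donor, Papss2 alone passed, falling by 1.44 ± 0.14 in FKO (adjusted p = 7.05e-06), and it was at 0.21 ± 0.15 in MKO (adjusted p = 0.667).

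Beside A4gnt, 18 mucin-type glycan genes were tested and 0 passed in either sex by edgeR. At an unadjusted p under 0.05 there were 4 in females and 1 in males, and DESeq2 called 2 and 1. Beside Dnaic1, 15 genes of axonemal dyneins and motile cilia were tested. Dnah11 alone passed, at -1.06 ± 0.27 in FKO (adjusted p = 0.0319, up to 0.111 when single livers were left out), and it was at 0.43 ± 0.32 in MKO (adjusted p = 0.668). Of the markers of multiciliated cells, 3 of 6 had enough counts to be tested and 0 passed by edgeR, by DESeq2 or at an unadjusted p under 0.05, and their summed level was 0.761 to 1.64 CPM in all livers. Beside Vaultrc5, 4 genes of vault proteins and related RNA-binding proteins were tested and 0 passed by edgeR or DESeq2, with 1 in females and 0 in males at an unadjusted p under 0.05.

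Serpina7 was set beside 19 tested genes of thyroid hormone transport and response, of which 1 was higher and 3 lower in FKO, and 1 was higher and 0 lower in MKO. Slco1a1, an organic anion transporter that takes up thyroxine, rose by 1.46 ± 0.24 in FKO (adjusted p = 0.00156), and Slc16a10, an aromatic amino acid and thyroid hormone transporter, fell by 1.03 ± 0.15 (adjusted p = 0.000439). Neither passed in MKO, where they were at -0.47 ± 0.23 and -0.04 ± 0.16. Me1, malic enzyme and a classical thyroid hormone-responsive gene, rose by 1.65 ± 0.30 in MKO (adjusted p = 0.00904, up to 0.0610 without MWT 1 or MWT 3) and was at 0.98 ± 0.28 in FKO (adjusted p = 0.0542). In FKO it passed by DESeq2 (adjusted p = 0.00723), with no filter (0.00468), under the replicate block (0.0299) and without FWT 2, FKO 5 or MKO 2.

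Of 13 tested lipid droplet genes, set beside Clstn3, 3 were higher in FKO and 1 in MKO, and 0 were lower. The list's median log2 fold change was 0.26 in females and 0.48 in males, with medians near 0 over all genes. The medians of the other lists ran from -0.20 to -0.01 in females and from -0.08 to 0.15 in males. These medians were not tested, and the lists were chosen with earlier results of these data known. Fitm1, which promotes droplet formation, rose by 2.60 ± 0.32 in FKO (adjusted p = 7.45e-05) and was at 1.19 ± 0.29 in MKO (adjusted p = 0.0567). In MKO it passed by DESeq2 (adjusted p = 0.00377), with no filter (0.00294), with only the groups compared (0.0455) and without FKO 1, FKO 4 or MKO 4. Pnpla3, a droplet-bound lipase, was at 4.11 ± 0.98 in MKO (adjusted p = 0.0486, with 11 of 15 fits without a single liver losing the call) and at 0.11 ± 0.74 in FKO. Hilpda, a droplet protein that restrains lipolysis, rose by 0.76 ± 0.18 in FKO (adjusted p = 0.0208, up to 0.0885 without single FWT livers).

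For each of the 10 genes, the gene outside the set with the highest Pearson correlation of log2 CPM over the 15 livers was sought. A4gnt was most like Me1 (r = 0.93), Olig1 most like Fitm1 (r = 0.95) and Sult5a1 most like Dio1 (r = 0.92), the deiodinase that activates thyroxine. Clstn3 was most like Fam83f (r = 0.96), Serpina7 most like Dbi (r = 0.97), the acyl-CoA-binding protein, and Gal3st1 most like the galactokinase gene Galk1 (r = 0.95). Gm34654 was most like Dnase1 (r = 0.97), Gm32468 like Cxadr (r = 0.93), Dnaic1 like Fam81a (r = 0.93) and Vaultrc5 like Gas2 (r = 0.92). With each group's mean taken out, these correlations lay between 0.62 for Dnaic1 and 0.88 for Gm34654. Each partner was picked as the highest of all genes tested in the same livers, so high values of both kinds are in part set by the choice. Dio1 fell by 1.01 ± 0.19 in FKO (adjusted p = 0.00548) and was at -0.67 ± 0.21 in MKO (adjusted p = 0.140). These are descriptions of genes measured in the same groups and libraries.

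Markers of other liver cells were read beside the shifts. Stellate, endothelial, Kupffer and lymphocyte lists had 6 tested markers each, and 0 passed in either sex by edgeR. DESeq2 called Lyve1 alone, in females, and between 0 and 2 markers of each list had an unadjusted p under 0.05. Their summed levels over all livers ran from 378 to 541, from 299 to 465, from 242 to 405 and from 20.3 to 36.8 CPM. The cholangiocyte list of 6 moved in part: Spp1 rose in FKO (0.60, adjusted p = 0.0272), and Krt19 and Epcam rose in MKO (1.23 and 0.95, adjusted p = 0.0307 and 0.0300). None of these passed in the other sex, with Spp1 at 0.13 in MKO and Krt19 and Epcam at 0.37 and -0.21 in FKO. Krt7, Sox9 and Cftr passed in neither sex. The list's summed level, most of it Spp1, was 32.5 to 33.1 CPM in FWT, 44.0 to 51.5 in FKO, 34.1 to 55.7 in MWT and 41.5 to 59.6 in MKO. The part of this list in the shifts of the 10 genes was not tested.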

How the data were processed

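Per the labels and the study's methods, the authors extracted total liver RNA, depleted ribosomal RNA, made TruSeq libraries and sequenced them paired-end, with a second run for libraries with few reads. Per the submitters' processing notes, reads were trimmed with Trimmomatic 0.36, aligned to GRCm38 with STAR and counted with HTSeq 0.6.0. The study's methods give another HTSeq version. The annotation, the strand setting and the treatment of multiply mapped reads are not given in the sources used here. The deposited values are raw counts per gene for 55573 Ensembl genes.

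The analysis used R 4.3.3 and edgeR 4.0.16. Genes were kept by filterByExpr (17655), libraries were scaled by TMM, and 1 quasi-likelihood model with a mean per group was fitted to all 15 libraries. No minimum fold change was set. The SE of a log2 fold change is its size divided by the square root of F, and a prior count of 2 went into each log2 CPM. The fit was tested on simulated data. Every count table column was used. Positions come from GENCODE M21, in which 17650 tested genes were placed by Ensembl identifier. The symbols Sts and Trove2 of the lists were not matched. A marker list is not reported here. The lowest chi-square per gene between livers of a group was 24.7, so no library repeats another beyond sampling noise. Single outlying livers were sought by Dixon's criterion for the 10 genes in FKO and MKO.

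The genes, lists and tests were chosen with earlier results of these data known. Named are the 10 genes, their nearest or overlapping tested neighbours, up to 3 genes per list with the largest passing change, the most correlated gene for each of the 10, up to 6 other genes past 1.5 log2 in both sexes, and Esr1. Lgals1, Fam83f, Gm11639, Pparg and Gm43195 were named as the genes just outside the fold minimum. Alternatives were DESeq2 size factors, total counts, DESeq2 1.42.0, no filter, a CPM filter, a fold minimum, only the groups compared, a replicate block and each mouse left out.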

Additional observations from a re-analysis of the deposited data

How the results depend on the processing

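All 10 genes kept their direction in both sexes under every alternative that held them, the exception being Dnaic1, which the CPM filter removed. Counts of passing genes moved more. FKO against FWT gave 1008 genes, and 1546 by DESeq2, 212 with the fold minimum, 457 with only the groups compared and 413 to 1538 when single mice were left out. MKO against MWT gave 250, and 499 by DESeq2, 411 with no filter, 102 with the fold minimum, 422 with only the groups compared and 100 to 331 without single mice. FKO against MKO gave 48, and 456 by DESeq2, 313 with no filter, 25 with the fold minimum, 26 with only the groups compared and 26 to 109 without single mice. FWT against MWT gave 860, 319 with the fold minimum and 541 to 1096 without single mice. Genes passing alike in both sexes numbered 41, and 94 by DESeq2, 81 with no filter, 14 with the fold minimum and 11 to 61 without single mice. The causes were not tested.

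Whether the replicate numbers pair the mice cannot be settled here, with only 3 or 4 same-numbered pairs per comparison. Deviations of same-numbered livers correlated at -0.19 to 0.09 between FKO and FWT and -0.12 to 0.03 between MKO and MWT. They correlated at -0.11 to 0.03 between FKO and MKO and 0.00 to 0.14 between FWT and MWT. With the replicate block 1383, 165, 41 and 796 genes passed in FKO against FWT, MKO against MWT, FKO against MKO and FWT against MWT, and 34 passed alike. Clstn3 had an adjusted p of 0.0707 in FKO against MKO under the replicate block.

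Groups of 3 to 5 mice and counts under 10 in livers of A4gnt, Dnaic1, Gm32468 and Gm34654 limit precision.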
